A study of Homo sapiens with 12 samples.

Results

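The zinc finger genes of chromosome 19 are the protein-coding genes of that chromosome, in RefSeq for GRCh38, whose symbol is ZNF followed by a number and at most 1 letter. The rule found 246 of the 1451 protein-coding genes of chromosome 19, and the 1205 others served as the comparison. The study asked whether INTS13 and several transcription factors that interact with it lie at the same places in the genome, by chromatin immunoprecipitation and sequencing in wild-type HEK293T cells, an established human embryonic kidney line. Antibodies against INTS13, HDGF and ZEB1 came from Proteintech, that against INTS11 from Atlas Antibodies, and that against ZNF609 from earlier work. Each protein had 2 libraries with 1 list of peaks each, and 2 libraries of input chromatin were not used here. No label says whether the 2 libraries of a protein are separate cultures, and their spread may be technical.

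Most of these genes encode proteins with rows of zinc fingers that bind DNA, and many carry a KRAB domain, which recruits the co-repressor TRIM28 (KAP1) and with it enzymes that place repressive histone methylation. The family grew by repeated gene duplication, so its members lie in clusters on chromosome 19 and resemble each other in sequence. Many of the proteins are known for silencing transposable elements, and the gene bodies themselves are known in human cells as sites of repressive chromatin, above all toward their 3′ ends. INTS13 and INTS11 are subunits of Integrator, which cuts nascent RNA made by RNA polymerase II, and INTS11 carries the endonuclease activity. HDGF has a PWWP domain and binds chromatin, ZEB1 represses epithelial genes through its zinc fingers, and ZNF609, itself a zinc finger protein, is known to bind Integrator.

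The lists held from 26409 peaks in ZNF609 replicate 2 to 416964 in INTS13 replicate 1 on chromosomes 1 to 22 and X. On chromosome 19 they held from 162 to 14841 peaks. The lists of 1 protein differed most in INTS11, with 5064 and 1314 peaks on chromosome 19. Read depth is unknown, so a gene without a peak is a gene where no peak was listed. Labels cannot be checked against a targeted gene in this design.

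All 5 proteins were listed less often at the ends of ZNF genes than at those of other genes of the chromosome, and the peaks of both INTS13 lists and INTS11 replicate 1 that ZNF genes did have lay more often at the start than at the transcript end. An end peak is a peak that overlaps the 1 kb on either side of a gene's start or end. INTS13 had an end peak at 169 ZNF genes (68.7%) in replicate 1 and at 131 (53.3%) in replicate 2, against 87.0% and 83.7% of the other genes. INTS11 had one at 58 (23.6%) and 10 (4.07%) ZNF genes, against 58.7% and 17.6%. HDGF had one at 26 (10.6%) and 30 (12.2%), against 48.8% and 43.6%. ZEB1 had one at 4 ZNF genes (1.63%) in each list, against 13.6% and 3.90% of the others. ZNF609 had one at 1 ZNF gene (0.407%) in each list, against 2.16% and 0.996%. In 10 of 10 lists the share was lower in the ZNF genes.

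**Figure D1:**
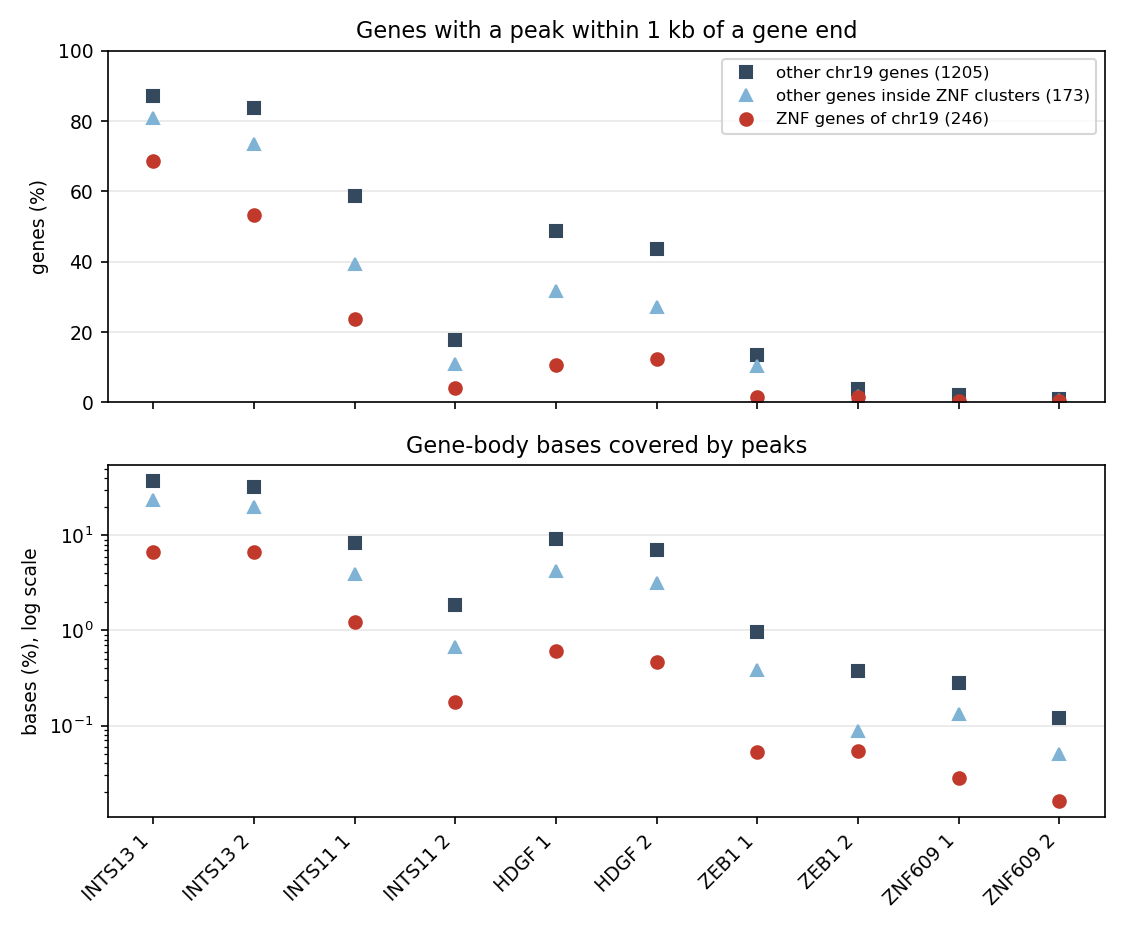
Share of genes with a peak within 1 kb of a gene end (upper panel, percent) and share of gene-body bases covered by peaks (lower panel, percent, log scale), for each of the 10 lists, with 1 point per list and group of genes. The 246 ZNF genes lie below the 1205 other genes of chromosome 19 in each list and measure, and the 173 other genes inside the ZNF clusters mostly lie between them.

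As a difference between ZNF genes and other genes, INTS13 stood at -24.4 ± 8.63 percentage points (SD, n = 2 lists) and INTS11 at -24.3 ± 15.2. HDGF stood at -34.8 ± 4.85, ZEB1 at -7.13 ± 6.87 and ZNF609 at -1.17 ± 0.822. The difference was larger than 1 SD between lists for all 5 proteins, and no test of 1 protein alone was run on its 2 lists. Whether the proteins differed from each other by more than their replicates was asked with a one-sided exact permutation test that goes through the 945 possible pairings of the 10 lists. Differences between lists of different proteins exceeded those within a protein by 7.86 percentage points, with an exact permutation p of 0.0709. The value was 10.5 (exact permutation p = 0.0392) without INTS11 replicate 1 and 12 (exact permutation p = 0.0455) without INTS11 replicate 2. Without any 1 of the other 8 lists it lay between 4.6 and 9.4, with exact permutation p from 0.0984 to 0.211. On the log2 ratio of the shares, the excess was 0.123 (exact permutation p = 0.302).

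The contrast moved with 3 other properties of these genes, whose part in it was not tested. The ZNF genes were longer, with a median of 23.2 kb against 12.8 kb, and the INTS13 contrast grew with length. Under 10 kb INTS13 replicate 1 had an end peak at 96.4% of 28 ZNF genes and 83.7% of 471 others, and replicate 2 at 75% and 81.3%. In that class ZEB1 replicate 2 (7.14% against 3.61%) and ZNF609 replicate 1 (3.57% against 1.49%) were also higher in ZNF genes. At 50 kb or more the INTS13 shares were 50% and 37.5% of 24 ZNF genes, against 91.3% of 104 others in both lists. Only 14 of them (5.69%) lay in 1-Mb bins crowded with peaks of most lists, against 325 of the other genes (27.0%). Outside those bins the INTS13 difference was -20.6 percentage points and the HDGF difference -28.4. The 173 other genes that lie inside the ZNF clusters were an intermediate group, with INTS13 end peaks at 80.9% and 73.4% and HDGF end peaks at 31.8% and 27.2%. Against them the difference was -16.2 percentage points in INTS13, -11.3 in INTS11, -18.1 in HDGF and -4.44 in ZEB1, and it changed sign in ZNF609, at 0.117.

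Regions found in both lists of a protein gave a stricter count. INTS13 had such a region at an end of 93 ZNF genes (37.8%), against a background of 73.7% of all protein-coding genes of chromosome 19. INTS11 had one at 4 ZNF genes (1.63%; background 10.6%), and HDGF had one at 11 (4.47%; background 24.3%). ZEB1 and ZNF609 had one at 0 ZNF genes each, where the backgrounds were 0.758% and 0.345%. Each of these shares lay below its background, and for ZEB1 and ZNF609 the background was itself close to 0. In all, 152 ZNF genes (61.8%) had such a region for none of the proteins, 82 for 1 protein, 10 for 2 and 2 for 3. This count over proteins was not made for other genes, 81.1% of which had such a region for INTS13 alone.

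The INTS13 lists agreed less well at ZNF genes than at other genes. Of the 169 ZNF genes with an INTS13 end peak in replicate 1, 65.7% also had one in replicate 2, against 93.9% of the 1048 other genes. Replicate 2 also had fewer ZNF genes with an end peak in all, 53.3% against 83.7% of other genes. Among genes without an end peak in replicate 1, replicate 2 had one at 26% of 77 ZNF genes and 15.9% of 157 others. An INTS13 end peak in replicate 1 alone was found at 58 of 246 ZNF genes and 64 of 1205 others. One in replicate 2 alone was found at 20 ZNF genes and 25 others. The INTS13 end peaks of ZNF genes were also narrower and ranked lower than those of other genes. Their median width was 748 bp in replicate 1 and 594 bp in replicate 2, against 1836 and 1308 bp. Their median rank, as a percentile by p-value within the list, was 67.2 and 45.6, against 91.2 and 74.6.

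Start and end of the transcript were told apart for the 216 ZNF genes and 969 other genes whose strand was known. At the start, INTS13 had a peak at 70.4% and 45.8% of ZNF genes, against 86.3% and 79.1% of other genes. At the transcript end it had one at 18.1% and 22.2% of ZNF genes, against 80.3% and 74.8% of the others. The contrast with other genes was thus -24.6 percentage points at starts and -57.4 at transcript ends. INTS11 replicate 1 had a start peak at 21.8% and an end-of-transcript peak at 6.48% of ZNF genes, against 49.9% and 32.6% of other genes. INTS11 replicate 2 had them at 6 (2.78%) and 3 (1.39%) ZNF genes, against 12% and 7.02%, too few to order start and end. HDGF ran the other way in the other genes, with starts at 29.3% and 27.0% and transcript ends at 40.4% and 32.7%. In ZNF genes HDGF was at 7.87% and 10.6% of starts and at 5.56% and 3.70% of transcript ends.

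Position by position, INTS13 replicate 1 covered the start itself in 53.7% of 214 ZNF genes, and a point 1000 bp upstream in 13.1%. Deeper in the gene body its share in ZNF genes was flat, with a median of 9.81%, and it was 5.61% at the transcript end. In 824 other genes the same list covered 65.3% of starts, a median of 39.4% along the body and 40% of transcript ends. The ZNF genes therefore rose 5.47-fold from body to start and the other genes 1.66-fold. Replicate 2 showed the peak at starts much less: it covered 15.4% of ZNF starts, 1.73-fold the body median of 8.88%. In the other genes INTS13 replicate 2 covered 29.7% of starts and 41.0% of points 750 bp upstream, so coverage there dipped at the start. Of ZNF genes with an INTS13 start peak, 52.0% had the summit within 250 bp of the start in replicate 1 and 25.3% in replicate 2. In other genes with such a peak the shares were 32.5% and 14.1%.

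**Figure D2:**
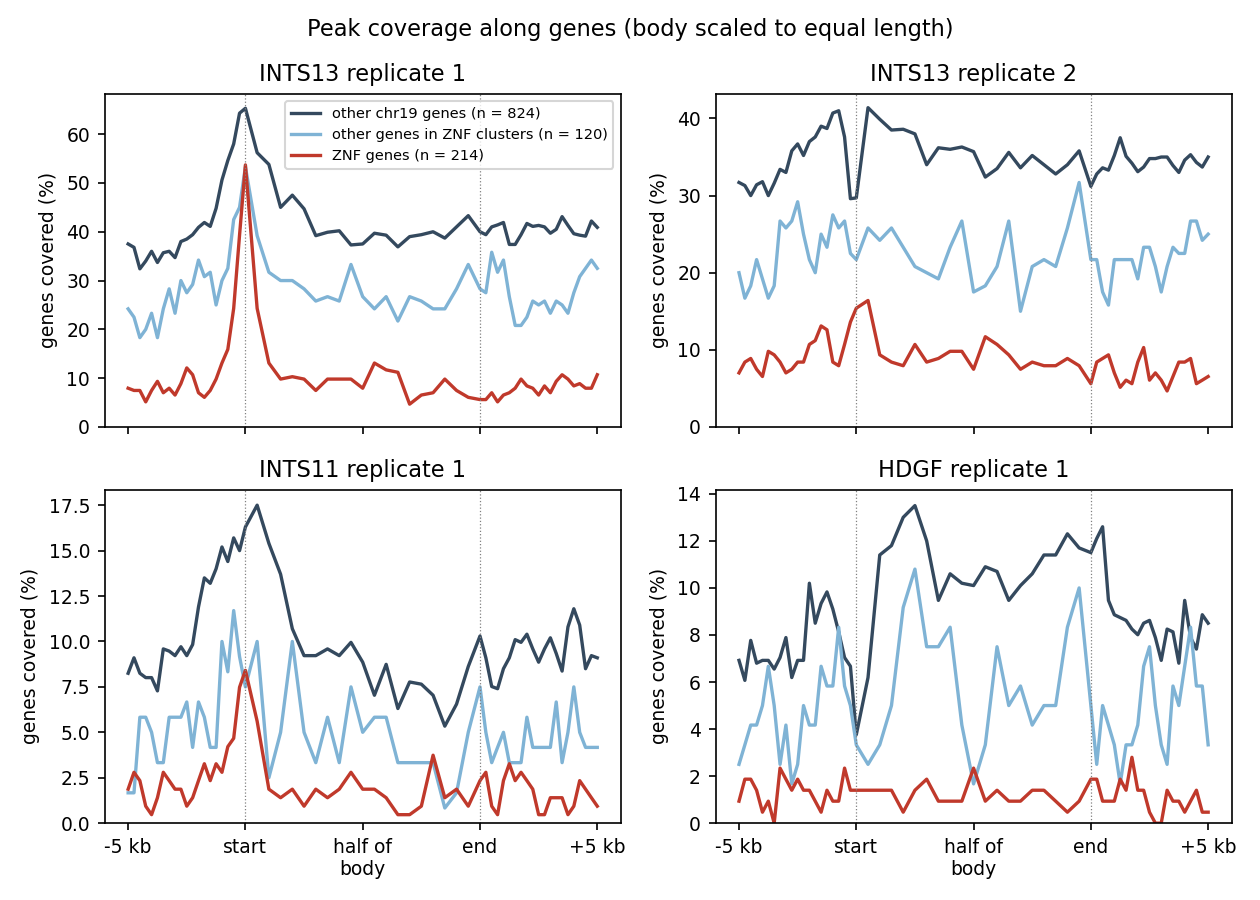
Percent of genes covered by a peak at each position, from 5 kb before the start, through the gene body scaled to equal length, to 5 kb past the end, for 4 of the lists, in genes of known strand and at least 4 kb. INTS13 replicate 1 covers 53.7% of ZNF starts against a body median of 9.81%, replicate 2 covers 15.4% of ZNF starts, and the HDGF line of the ZNF genes stays low and flat.

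Peaks of all 5 proteins covered a smaller share of ZNF gene bodies than of the bodies of other genes. INTS13 peaks covered 6.75% and 6.62% of the summed 7.18 Mb of ZNF gene bodies, against 37.3% and 32.6% of the bodies of other genes, 5.53-fold and 4.93-fold less. INTS11 covered 1.22% and 0.177%, against 8.29% and 1.86%, which is 6.8-fold and 10.5-fold less. HDGF covered 0.602% and 0.470%, against 9.21% and 6.98%, which is 15.3-fold and 14.8-fold less. ZEB1 covered 0.0521% and 0.0546%, against 0.962% and 0.376%, which is 18.5-fold and 6.88-fold less. ZNF609 covered 0.0281% and 0.0162%, against 0.282% and 0.121%, which is 10-fold and 7.45-fold less. Among genes of 20 to 50 kb, 123 of them ZNF genes, INTS13 covered 4.90% and 5.75% of ZNF bodies and 38.7% and 34.5% of others. Under 10 kb the contrast was smaller, with INTS13 on 29.9% and 19.6% of ZNF bodies and 46.5% and 37.2% of others.

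In percentage points the body difference of INTS13 was -28.3 ± 3.23 (SD, n = 2 lists) and that of HDGF -7.56 ± 1.48. It was -4.37 ± 3.81 in INTS11, -0.615 ± 0.416 in ZEB1 and -0.179 ± 0.106 in ZNF609. Between proteins these values differed by 10.1 percentage points more than within proteins, with an exact permutation p of 0.00529. That test follows how much of the genome a list covers: on the log2 ratio of ZNF to other genes the excess was 0.278, with an exact permutation p of 0.168. Regions of both lists lay in the body of 120 ZNF genes (48.8%) for INTS13, beside a background of 78.5% of all protein-coding genes of chromosome 19. The count was 7 (2.85%) for INTS11 with a background of 18.6%, and 15 (6.10%) for HDGF with a background of 36.1%. ZEB1 and ZNF609 had such a region in 0 ZNF gene bodies, with backgrounds of 1.10% and 0.758%.

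Promoters of both kinds of ZNF gene are printed here because peaks of both INTS13 lists and INTS11 replicate 1 at these genes lay more often at the start. RefSeq (GRCh38.p14) holds a promoter of 300 bases, 250 before and 50 after a start, for 216 ZNF genes. Of these, 187 (86.6%) start within 1 kb of the gene's 5′ end, where start peaks were counted; the comparisons of promoters use all 216. Capitals mark CpG dinucleotides. The first 4 belong to the ZNF genes with a start peak in all 4 Integrator lists. They are ZNF555 (chr19:2841225-2841524, plus strand), ZNF146 (chr19:36214856-36215155, plus), ZNF8 (chr19:58278705-58279004, plus) and ZNF446 (chr19:58476102-58476401, plus). Of these 4, only ZNF555 and ZNF8 had a region of both INTS11 lists at an end. ZNF146, which lies within ZNF565, had an end region of both lists for 0 proteins. The INTS11 peaks of ZNF446 were also counted at its neighbour ZNF324. The ZNF146 promoter starts from a site 383 bp inside the gene's outermost start. The 4 promoters hold 25, 24, 26 and 33 CpG.
ZNF555: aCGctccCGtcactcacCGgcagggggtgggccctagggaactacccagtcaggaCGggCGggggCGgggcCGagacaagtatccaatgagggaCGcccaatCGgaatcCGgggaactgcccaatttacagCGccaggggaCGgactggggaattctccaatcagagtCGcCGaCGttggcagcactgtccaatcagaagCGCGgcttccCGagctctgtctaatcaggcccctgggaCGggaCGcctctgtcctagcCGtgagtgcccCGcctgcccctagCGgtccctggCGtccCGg
ZNF146: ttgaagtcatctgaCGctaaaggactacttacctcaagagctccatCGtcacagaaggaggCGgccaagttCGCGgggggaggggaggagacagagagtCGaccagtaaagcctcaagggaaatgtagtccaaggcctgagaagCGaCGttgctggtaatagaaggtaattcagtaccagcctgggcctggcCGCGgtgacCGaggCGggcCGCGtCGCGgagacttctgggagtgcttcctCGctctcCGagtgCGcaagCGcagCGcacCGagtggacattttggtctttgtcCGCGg
ZNF8: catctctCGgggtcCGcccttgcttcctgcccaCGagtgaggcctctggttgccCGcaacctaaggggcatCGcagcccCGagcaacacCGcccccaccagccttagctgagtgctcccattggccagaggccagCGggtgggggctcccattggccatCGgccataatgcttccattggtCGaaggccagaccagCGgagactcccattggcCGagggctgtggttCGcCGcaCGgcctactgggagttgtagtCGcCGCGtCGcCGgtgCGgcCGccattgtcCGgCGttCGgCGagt
ZNF446: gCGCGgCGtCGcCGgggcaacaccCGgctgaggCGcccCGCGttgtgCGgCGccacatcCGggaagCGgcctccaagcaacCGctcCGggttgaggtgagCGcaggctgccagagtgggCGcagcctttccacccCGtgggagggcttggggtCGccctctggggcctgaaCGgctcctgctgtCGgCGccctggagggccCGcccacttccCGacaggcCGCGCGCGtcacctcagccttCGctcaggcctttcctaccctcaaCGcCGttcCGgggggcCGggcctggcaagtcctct

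The next 3 belong to the longest ZNF genes with no peak in any list whose promoter lies within 1 kb of the gene's 5′ end. They are ZNF100 (chr19:21767530-21767829, minus strand), ZNF626 (chr19:20661522-20661821, minus) and ZNF257 (chr19:22052234-22052533, plus), and they hold 10, 8 and 13 CpG.
ZNF100: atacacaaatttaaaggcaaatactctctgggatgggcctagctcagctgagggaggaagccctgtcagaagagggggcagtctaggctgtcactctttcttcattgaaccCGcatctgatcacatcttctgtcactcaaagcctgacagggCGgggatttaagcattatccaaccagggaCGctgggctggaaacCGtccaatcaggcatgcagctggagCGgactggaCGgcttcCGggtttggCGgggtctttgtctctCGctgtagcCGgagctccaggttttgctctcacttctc
ZNF626: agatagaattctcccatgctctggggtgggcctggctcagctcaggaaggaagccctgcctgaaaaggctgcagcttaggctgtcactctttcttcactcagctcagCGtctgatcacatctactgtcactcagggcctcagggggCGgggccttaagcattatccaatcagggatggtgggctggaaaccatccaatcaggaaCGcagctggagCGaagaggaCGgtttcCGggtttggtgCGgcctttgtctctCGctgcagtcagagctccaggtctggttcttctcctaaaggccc
ZNF257: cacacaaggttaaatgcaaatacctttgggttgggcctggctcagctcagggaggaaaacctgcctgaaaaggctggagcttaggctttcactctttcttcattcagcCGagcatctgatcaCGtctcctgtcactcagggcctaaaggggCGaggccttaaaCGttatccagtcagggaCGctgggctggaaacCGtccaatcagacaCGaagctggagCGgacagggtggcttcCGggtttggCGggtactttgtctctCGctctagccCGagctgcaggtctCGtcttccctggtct

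Over all 216 ZNF promoters the CpG count moved with the INTS13 replicate 1 start peak, and it did so in other genes as well. The median was 22 CpG in the 152 ZNF promoters with such a peak and 16 in the 64 without, against 23 and 7 in other genes. By class, replicate 1 had a start peak at 33.3% of 15 ZNF genes with under 10 CpG, 62.8% of 86 with 10 to 19, 81.6% of 87 with 20 to 29 and 78.6% of 28 with 30 or more. Replicate 2 did not show this order as clearly in ZNF genes, at 40%, 45.3%, 44.8% and 53.6% in the same classes. Its medians with and without a peak were both 20, against 23 and 11 in other genes. In each class both INTS13 lists marked a smaller share of ZNF genes than of other genes. The replicate 1 share of other genes rose from 67.1% with under 10 CpG to 97% with 30 or more. The promoters of ZNF genes and of other genes had similar medians, 20 and 21 CpG, and GC contents of 60% and 64.0%.

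**Figure D3:**
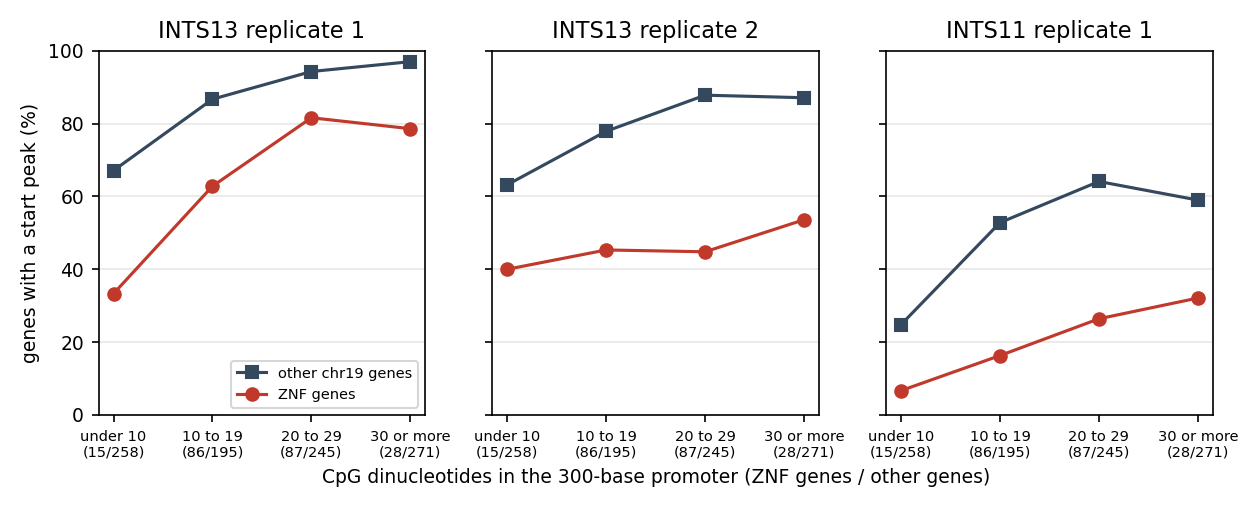
Percent of genes with a start peak (y axis) by number of CpG dinucleotides in the 300-base promoter (x axis, with the number of ZNF and other genes in brackets), for 3 lists. The ZNF line rises from 33.3% to 78.6% in INTS13 replicate 1 and from 40% to 53.6% in replicate 2, and lies below the line of other genes in each class.

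Likeness between promoters moved with the peaks as well. A stretch of 30 bases shared with the promoter of another gene elsewhere in the genome was found in 53 ZNF promoters (24.5%) and in 62 promoters of other genes (6.40%). INTS13 replicate 1 had a start peak at 47.2% of those 53 ZNF genes and at 77.9% of the ZNF genes without a shared stretch, and replicate 2 at 28.3% and 51.5%. In other genes the gap was wider, at 43.5% against 89.2% in replicate 1 and 30.6% against 82.4% in replicate 2. Most ZNF promoters of the cluster next to the centromere, described below and low in INTS13, held a shared stretch. How far reads from shared stretches were kept in these lists is not given in the sources used here, and the part of sharing in the result was not tested.

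The CCAAT box, searched as CCAAT on both strands (ATTGG on the other) after the printed sequences had been seen, differed in frequency between clusters. It was found in 54.2% of ZNF promoters, 37.4% of promoters of other genes of chromosome 19 and 35.7% of 27305 promoters of the whole table. ZNF555 has 5 copies and ZNF8 has 4 on the opposite strand, while ZNF146 and ZNF446 have 0. All 29 ZNF genes with a promoter in the cluster between 19.7 and 24.1 Mb hold it, and 21 of them (72.4%) hold at least 2 copies. In the cluster at 51.6 to 53.6 Mb, also low in INTS13, 9 of 32 (28.1%) hold it and 0 hold 2 copies. It was present in 50.7% of ZNF promoters with an INTS13 replicate 1 start peak and 62.5% of those without. The E-box of ZEB1, CAGGTG or CACCTG, was found in 15.3% of ZNF promoters, 21.8% of those of other genes and 20.6% of the whole table. It was found in 0 of the 3 ZNF promoters with a start peak in ZEB1 replicate 1 and in 0 of the 3 different ones in replicate 2, too few to compare.

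INTS13 end peaks were unevenly spread over the clusters of ZNF genes. With runs of members parted at gaps over 1 Mb, there were 16 clusters, of which 7 held 10 or more ZNF genes and 225 in all. At the far end of the long arm, chr19:55476617-58489533, INTS13 had an end peak at 88.1% and 66.1% of 59 ZNF genes and a region of both lists at 33 of them. There the 45 other genes stood lower, at 66.7% and 51.1%, and the ZNF gene bodies were covered to 15.5% and 12.6% against 10.5% and 9.65%. At chr19:11483429-12633834, 84.0% and 72.0% of 25 ZNF genes had an INTS13 end peak.

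The cluster next to the centromere, chr19:19668153-24129968, stood lowest among the 7. INTS13 had an end peak at 24.3% and 21.6% of its 37 ZNF genes, a region of both lists at 4, and covered 0.921% and 1.44% of their bodies. No list had an end peak at 23 of the 37. At chr19:51571283-53580269 INTS13 had an end peak at 41.0% and 30.8% of 39 ZNF genes and a region of both lists at 4, and 18 had no end peak in any list. Its 16 other genes were also low, at 50% and 43.8%. At chr19:36182060-37779586 the INTS13 lists parted most, with 80.8% and 46.2% of 26 ZNF genes.

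**Figure D4:**
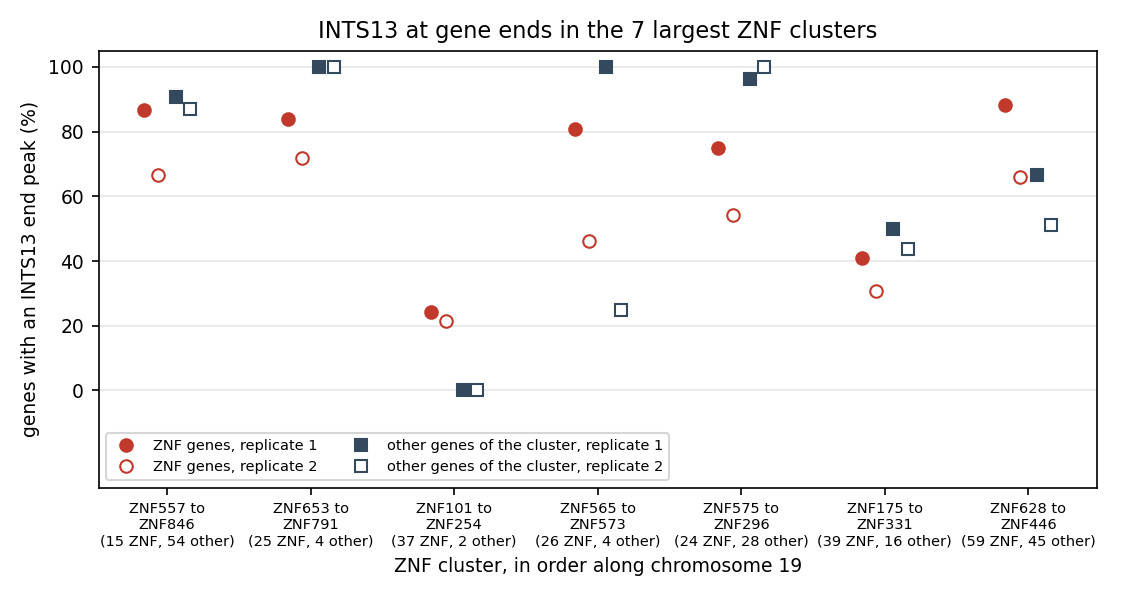
Percent of genes with an INTS13 peak within 1 kb of a gene end (y axis) in the 7 largest ZNF clusters in order along chromosome 19 (x axis), with 1 point per list for ZNF genes and for the other genes of the cluster. The 37 ZNF genes of the third cluster stand at 24.3% and 21.6%, the 59 of the last at 88.1% and 66.1%, above the other genes there.

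Counted over all 10 lists, a ZNF gene had an end peak in a median of 2 lists and another gene in a median of 4. An end peak in at least 5 lists was found at 16 ZNF genes (6.50%) and 453 other genes (37.6%), and one in at least 8 lists at 0 ZNF genes and 12 others. No end peak in any list was found at 54 ZNF genes (22%) and 132 other genes (11%). No peak at all, body included, was found at 25 ZNF genes (10.2%) and 113 other genes (9.38%). Of those 25, 15 lay in the cluster next to the centromere and 8 in that at 51.6 to 53.6 Mb. The 5 longest were ZNF676 (81.2 kb), ZNF723, ZNF100, ZNF626 and ZNF257, all in the cluster next to the centromere. The 16 ZNF genes of 5 or more lists had a median length of 12 kb, against 24.1 kb for the other ZNF genes.

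**Figure D5:**
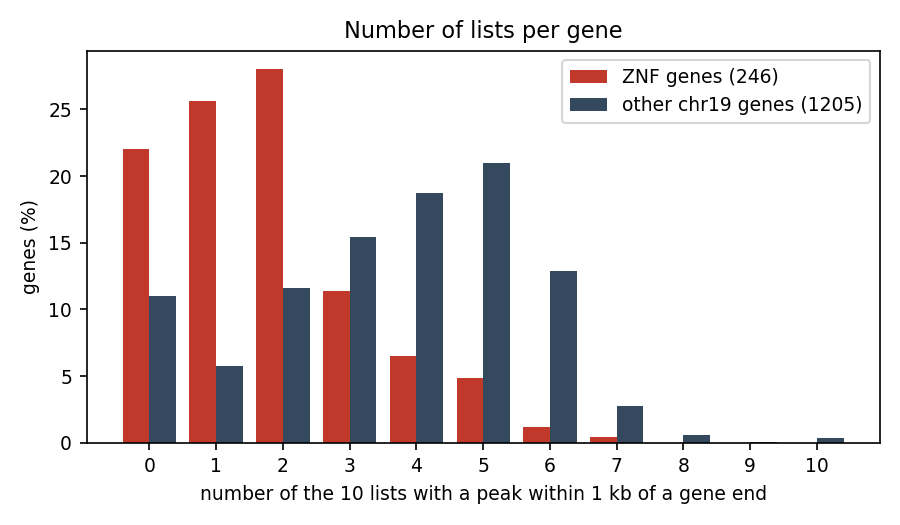
Percent of genes (y axis) by the number of the 10 lists with a peak within 1 kb of a gene end (x axis), for the 246 ZNF genes and the 1205 other genes of chromosome 19. ZNF genes crowd at 0 to 2 lists (22%, 25.6% and 28.0%, against 11%, 5.73% and 11.6% of other genes), and the other genes are most frequent at 5 lists (21.0%).

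The ZNF gene with end peaks in the most lists was ZNF653, with 7. ZNF653 (chr19:11483429-11505839) encodes a transcriptional repressor, and its best end peak had a -log10 q of 8.41 and 3.23 in the INTS13 lists, 3.02 and 2.90 in INTS11, 3.54 and 3.33 in HDGF and 1.90 in ZEB1 replicate 1. ZEB1 replicate 2 and both ZNF609 lists had no end peak there. ZNF653 and ZNF414 were the 2 ZNF genes with regions of both lists for INTS13, INTS11 and HDGF at an end. ZNF414 (chr19:8509678-8514167) is 4.49 kb long and had a -log10 q of 7.90 and 4.19 for INTS13, 5.14 for INTS11 replicate 1 and 3.07 and 2.41 for HDGF. INTS11 replicate 2 had no own end peak at ZNF414, and the merged region reached its window through the peak of replicate 1.

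ZNF526, ZNF428 and ZNF446 had end peaks in 6 lists each. At ZNF428 (chr19:43607224-43619629) INTS13 reached a -log10 q of 13.5 in replicate 1 and 2.94 in replicate 2, so the same gene stood at the 99.5 and the 54.3 percentile of the 2 lists. At ZNF526 (chr19:42220312-42228201) the values were 10.6 and 2.66 for INTS13, 4.75 for INTS11 replicate 1, 3.07 and 4.98 for HDGF and 2.25 for ZEB1 replicate 2. ZNF446 and its neighbour ZNF324, side by side near the end of the chromosome arm, share peaks: INTS11 had 4.75 and 2.29 and HDGF replicate 1 had 3.07 at both genes. ZNF324 had the highest mean rank of INTS13 end peaks, with a -log10 q of 11.1 and 5.64. In all, 44 ZNF genes (17.9%) had an end window that overlapped that of another ZNF gene, so such genes are not independent observations.

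The regions of both INTS11 lists lay at ZNF555, ZNF414, ZNF653 and ZNF8. ZNF555 (chr19:2841475-2860471) had a -log10 q of 8.41 and 6.03 for INTS13 and 4.02 and 2.01 for INTS11. It had a start peak in all 4 of these lists and in INTS13 replicate 2 a peak at the transcript end as well. ZNF8 (chr19:58278955-58302791), whose protein is known to bind SMAD proteins, had 9.46 and 3.54 for INTS13 and 2.72 and 3.23 for INTS11, again at the start. ZNF181 had the highest mean rank for INTS11, with 3.67 and 3.23. INTS11 lay mostly where INTS13 lay: of the 58 ZNF genes with an INTS11 replicate 1 end peak, 54 (93.1%) had an INTS13 replicate 1 end peak, against 61.2% of the 188 without. In other genes the corresponding shares were 99.4% and 69.3%, and the difference between the groups was not tested.

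The 11 ZNF genes with a region of both HDGF lists at an end were ZNF414, ZNF653, ZNF333, ZNF574, ZNF526, ZNF428, ZNF296, ZNF628, ZNF865, ZNF581 and ZNF584. ZNF333 (chr19:14689787-14733742), a gene that lies apart from the large clusters, had the highest mean HDGF rank, with a -log10 q of 4.56 and 6.92. It had no INTS11 end peak in either list. ZNF581 followed with 4.56 and 4.98, and ZNF574 with 3.54 and 3.85. Over all ZNF genes, an HDGF end peak in replicate 1 came with one of INTS13 replicate 1 at 24 of 26 genes (92.3%), against 65.9% of those without an HDGF peak. An HDGF end peak in replicate 2 came with one of INTS13 replicate 2 at 26 of 30 genes (86.7%), against 48.6% of those without. In other genes with an HDGF end peak, the same INTS13 list had one at 100% and 99.4%.

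The 2 ZEB1 lists marked different ZNF genes, and they overlapped little at other genes too. Of 164 other genes with a ZEB1 replicate 1 end peak, 16 (9.76%) had one in replicate 2. Replicate 1 had an end peak at ZNF653, ZNF428, ZNF784 and ZNF580, and replicate 2 at ZNF526, ZNF45, ZNF579 and ZNF446, so 0 of the 8 were shared. Their -log10 q lay between 1.27 at ZNF446 and ZNF579 and 2.25 at ZNF526. For ZNF609, replicate 1 had its end peak at ZNF575, with a -log10 q of 3.42, and replicate 2 at ZNF404, with 2.50. ZNF404 had no end peak in any of the other 9 lists. A ZNF609 end peak in 1 of 246 genes is too few to order the ZNF genes by.

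Of 12 ZNF genes known from the literature, 6 had an end peak in 1 to 3 lists and 6 had none. ZNF274, whose protein is known to bind the 3′ ends of other zinc finger genes, had INTS13 end peaks with a -log10 q of 3.32 and 2.94, at its start and at its transcript end in both lists, and an INTS11 replicate 1 peak of 1.25. ZNF91 and ZNF93, whose proteins are known to bind retrotransposons, had no end peak in any list. INTS13 peaks in the body of ZNF91, in replicate 2 alone, covered 1.63% of its 90.5 kb. ZNF331, ZNF675, ZNF534 and ZNF568 also had no end peak in any list. ZNF350, ZNF587 and ZNF649 had an INTS13 end peak in both lists, with a -log10 q between 1.07 and 4.02, ZNF382 had one in replicate 1, and ZNF417 had one each in INTS13 and INTS11 replicate 1.

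ZNF536 and ZNF473 lie alone, outside the large clusters. ZNF536, a neural gene and the longest of all at 488 kb (chr19:30225592-30713586), held 112 and 74 INTS13 peaks, 12 and 0 INTS11 peaks and 10 and 4 HDGF peaks in its body, and INTS13 covered 13.8% and 10.2% of it. ZNF473 (chr19:50026005-50048776), whose protein takes part in the processing of histone pre-mRNA, was singled out after its values were seen. It had a -log10 q of 9.46 and 2.94 for INTS13, 3.02 for INTS11 replicate 1 and 2.00 for HDGF replicate 2. The shortest member, ZNF580 at 2.47 kb, had end peaks in 5 lists and lies within ZNF581, so peaks of the 2 genes cannot be told apart.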

How the data were processed

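Each deposited list holds the peaks of 1 library. Per the submitters' processing notes, FastQC, Trimmomatic, Bowtie, Picard and MACS2 were used. Their versions and thresholds, the control and the build were not given in the sources used here, and GRCh38 was inferred from contig names in the deposited lists. For each peak the authors deposited a fold, a ratio over background, and a p-value and q-value on a -log10 scale. These were used only to rank and describe peaks within 1 list.

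Genes were taken from RefSeq for GRCh38.p14 and matched by symbol. Strand and promoters came from the RefSeq promoter table. A peak counted at an end if it overlapped 1 kb either side by 1 bp or more, and body coverage was the covered share of summed gene-body bases. Regions of both lists were merged peaks that held a peak of each list. Such a merged region can reach a window when only 1 of the lists has its own peak there. Replicates were compared as lists, and 2 lists per protein cannot go below a two-sided p of 0.333 against 2 others. The pairing test was checked on simulated data. Calculations used Python 3.11.15, numpy 2.4.6, pandas 2.3.3 and matplotlib 3.10.9.

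The members, lists and tests were chosen with earlier results of these data known. Named genes are the 10 with end peaks in most lists, the 3 with the highest mean rank per protein, the 5 longest without a peak, the longest and shortest, 12 known from the literature, and those with most body peaks per 10 kb. 41 of the 246 members overlap another protein-coding gene, whose peaks cannot be told apart from theirs. Strand was unknown for 30. Alternatives varied the window, the peaks used, the genes compared and the libraries.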

Additional observations from a re-analysis of the deposited data

Results flagged for a closer look

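The contrast in gene-body coverage between ZNF genes and other genes of chromosome 19 differed between the 5 proteins by more than between replicates, with an exact one-sided permutation p of 0.00529 over 945 pairings. The difference was -30.6 and -26.0 percentage points in the INTS13 lists and lay between -8.61 and -0.105 in the other 8. On a log2 ratio scale, added after seeing the data, the exact permutation p was 0.168.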

How the results depend on the processing

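Of the recomputed values, 96 kept their direction and their side of the threshold or moved by less than 1 SD between the 2 lists, which is wide for ZEB1 and INTS11 (at gene ends, -0.539 for ZEB1 with a -log10 q of at least 5 and -0.913 in both lists, and -10.8 for INTS11 in both lists, are among them), 34 moved by more than 1 SD between lists, 1 changed sign, 6 passed the threshold where the original had not, and 1 no longer passed. With 2 lists per protein, leaving out 1 list cannot move that protein's own mean by 1 SD. Those recomputed values were bound to fall among the 96, so they do not show stability. For gene ends, only the 10000 highest peaks of each list gave -4.43 for INTS13, -1.04 for INTS11 and -5.29 for HDGF. With a -log10 q of at least 5 the values were -1.92 for INTS11, -4.90 for HDGF and -0.124 for ZNF609. Transcript ends alone gave -57.4 for INTS13 and -0.336 for ZNF609, and starts alone -18.9 for HDGF. Regions of both lists gave -43.3 for INTS13 and -23.8 for HDGF. For HDGF, windows of 500 bp and 2 kb gave -27.2 and -42.1, genes outside crowded bins -28.4 and genes inside the clusters -18.1; those genes gave 0.117 for ZNF609.

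For gene bodies, the top 10000 peaks gave -0.976, -0.223, -0.889, -0.125 and -0.0401 in the order INTS13, INTS11, HDGF, ZEB1 and ZNF609. With a -log10 q of at least 5 they were -7.84, -0.321, -0.732, -0.0467 and -0.00799. Genes inside the clusters gave -15.2 for INTS13, -3.15 for HDGF, -0.182 for ZEB1 and -0.0692 for ZNF609. Outside crowded bins INTS13 stood at -23.4 and HDGF at -5.73. Regions of both lists gave -34.9, -5.97 and -0.150 for INTS13, HDGF and ZEB1.

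Between proteins, the gene-end excess had an exact permutation p of 0.0476 (10.3 points) with a 2 kb window, 0.00106 with a -log10 q of 5 or more (8.20), which is the smallest p possible, and 0.00106 at transcript ends (20.4). Its exact permutation p was 0.124 with a 500 bp window, 0.0751 with the top 10000 peaks and 0.13 at starts alone. It was 0.168 against genes inside the clusters and 0.111 outside crowded bins. Leaving out 1 library at a time gave an excess of 4.60 to 12. With the replicate block it was 9.02 (p = 0.0497, exact permutation), and the gene-body excess was 10.8 (p = 0.00741, exact permutation), though the labels do not say that equal numbers mark a shared batch. On the log2 ratio scale, chosen after seeing the data, the gene-body excess of 0.278 had an exact permutation p of 0.168. Regions of both lists give 1 value per protein and no such test. Causes were not tested. Read depth is unknown, so shares near 0, as for ZEB1 and ZNF609, are limited by how many peaks were listed.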

Other observations

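ZNF genes of other chromosomes had end peaks more often than those of chromosome 19 in 10 of 10 lists. Of 263 such genes, INTS13 had an end peak at 82.1% and 66.5%, INTS11 at 49.4% and 26.6%, HDGF at 36.1% and 36.9%, ZEB1 at 14.4% and 12.2% and ZNF609 at 8.75% and 6.08%. The genes of chromosome 19 that are not ZNF genes also stood below these 263 in some lists. These were INTS11 replicate 2 (17.6%), ZEB1 (13.6% and 3.90%) and ZNF609 (2.16% and 0.996%), where the gap is not particular to ZNF genes. In INTS13, HDGF and INTS11 replicate 1 they stood above the 263. Over all 19974 protein-coding genes INTS13 stood at 79.5% and 68.1%, INTS11 at 50% and 22.2%, HDGF at 38.5% and 34.6%, ZEB1 at 13.3% and 8.48% and ZNF609 at 7% and 3.43%. A region of both INTS13 lists was found at 62.4% of the ZNF genes elsewhere and at 63.7% of all genes, one of ZEB1 at 8.37% and 3.78%, and one of ZNF609 at 3.42% and 1.57%. The 18 genes of other zinc finger families on chromosome 19 had INTS13 end peaks at 83.3% and 55.6%, and HDGF end peaks at 22.2% and 11.1%. For INTS11 their shares were 22.2% and 0%, near those of the ZNF genes, and for ZEB1 and ZNF609 they were 0% in each list. No test of these differences was run.

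Genes of the machinery that KRAB zinc finger proteins recruit were also looked at, from a list of 27. INTS13 had a region of both lists at an end of 19 of them (70.4%, against 63.7% of all protein-coding genes), INTS11 at 5 (18.5%, against 17.4%) and HDGF at 8 (29.6%, against 22.2%). ZEB1 had one at 1 (3.7%, against 3.78%), the deacetylase gene HDAC1, and ZNF609 at 0 (against 1.57%). SETDB1, the histone methyltransferase of this pathway, had regions of INTS13, INTS11 and HDGF, as had HDAC1, RBBP4, SUMO2 and MORC2. TRIM28, the co-repressor itself and a gene of chromosome 19, had no end peak in any of the 10 lists, and neither had EHMT2, DAXX and ATF7IP. Of the other genes of chromosome 19, 11% had no end peak in any list. That share was not counted over all protein-coding genes, so the absence at these genes cannot be read as a trait of the machinery. Only peaks on chromosomes 1 to 22 and X were used, and peaks on alternate contigs were left out.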
